A study of Homo sapiens with 12 samples.

Results

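The members are the KDM2B peaks of chromosome arm 16p, that is, peaks on chromosome 16 with their midpoint below 36.6 Mb (build hg19), in 7 human leukaemia cell lines. They number 1872 of the 79473 peaks in all 7 lists, and 1002 of them lie in the terminal band 16p13.3, below 7.9 Mb. The arm was chosen because HPB-ALL has few peaks on it, so the number of HPB-ALL peaks there is a description and was not tested by itself. Where that number enters a test over the lines, the test is a description too. The arm was selected on these peak counts. Binding was measured by ChIP-seq (sequencing of the DNA that an antibody brings down with its protein), with 1 library and 1 peak list per line, so no value has a replicate and a line cannot be told apart from its library. The lines are K562 (chronic myeloid leukaemia in blast crisis, with the BCR-ABL1 fusion), REH (B-cell precursor acute lymphoblastic leukaemia), SUP-B15 (the same disease, with BCR-ABL1), and DND41, HPB-ALL, JURKAT and SIL-ALL (T-cell acute lymphoblastic leukaemia, T-ALL). All were kept untreated, as far as the labels say, in the same medium and serum and precipitated with the same KDM2B antibody. The leukaemia types are background knowledge of these established lines, and peak lists hold no expression values against which to check them.

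KDM2B is a histone demethylase with a CXXC zinc finger that recognises unmethylated CpG-rich DNA, and it brings a variant Polycomb repressive complex to CpG islands. Band 16p13.3 is among the most gene-rich parts of the genome. It holds the alpha-globin genes near the end of the arm, the Wnt pathway scaffold gene AXIN1, the growth regulator TSC2 with its neighbour PKD1, and CREBBP, a histone acetyltransferase gene that is often mutated in lymphoid leukaemia. Its inner part is taken up largely by RBFOX1, a very long gene in an otherwise gene-poor stretch. Band 16p13.13 holds CIITA, the activator of MHC class II genes, and 16p11.2 holds the leukocyte integrin gene ITGAL, the chromatin remodeller gene SRCAP and FBRS, whose product belongs to another variant Polycomb complex. Peaks were not assigned to genes and no sequence is shown, since a gene map and genome of build hg19 were not used here. The genes name what a band holds, not what is bound.

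The lists held 5942 (K562) to 15304 (SIL-ALL) peaks, and their lowest score ran from 50 to 80.03, so they did not share a threshold. Each peak has a score that the authors gave it. The score was turned into a percentile within its list, in which 100 is the strongest peak. Scores were not compared between lists. Percentiles of different lists are set side by side below as ranks. The lists differ in length and lowest score, so equal percentiles need not mean equal binding. Read depth is unknown, and input signal and copy number were not used here. Whether either differs along 16p between the lines was therefore not tested.

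HPB-ALL had few peaks in 16p13.3. In the remainder of the arm its share of peaks lay within the range of the other lists, with 48 of these peaks in a single stretch of 581 kb in 16p11.2. It had 24 peaks in 16p13.3, against 83 in SUP-B15, 120 in K562, 135 in REH, 158 in JURKAT, 219 in DND41 and 263 in SIL-ALL. As a share of the list this was 0.188% (Wilson 95% interval 0.126 to 0.280%, counting error only), and the other 6 lists had 1.06 to 2.02%, with a median of 1.56%. Outside 16p13.3 HPB-ALL had 143 peaks, 1.12% of its list (0.952 to 1.32%), within the 0.841 to 1.32% of the other lists. Without the stretch it had 95 peaks there, 7.44 per 1000 peaks of the list, below the 7.91 (K562) to 10.9 (DND41) of the others. The band thus made up 14.4% of the HPB-ALL peaks of the arm (9.85 to 20.5%), and 51.2% (SUP-B15) to 70.6% (K562) of those of the other lines. On the long arm of the same chromosome HPB-ALL was also the lowest, with 1.68% (1.48 to 1.92%) against 2.25 to 3.04%.

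**Figure D1:**
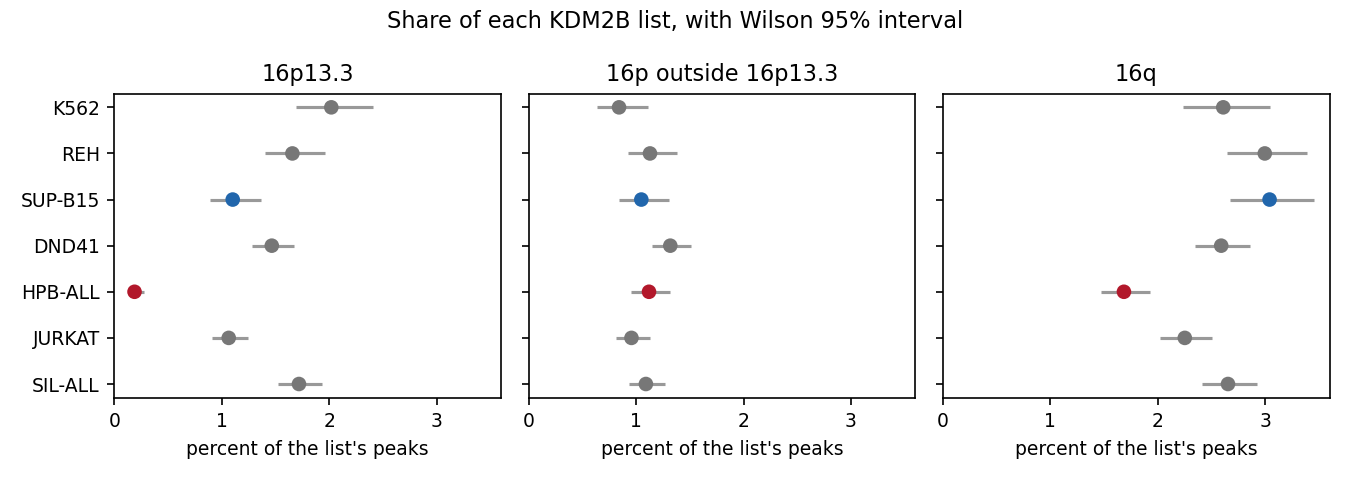
Percent of each list's peaks (x axis) in 16p13.3, in 16p outside that band and on 16q, 1 point per line with its Wilson 95% interval; HPB-ALL is red, SUP-B15 blue and the other lines grey. HPB-ALL stands at 0.188% in 16p13.3, apart from the other lines, and among them (1.12%) in the remainder of 16p, where 48 of its 143 peaks are in the 16p11.2 stretch.

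In the 6 lines other than HPB-ALL, the arm was a dense block of peaks at its end followed by scattered sites. Their lists had 10.5 (SUP-B15) to 33.3 (SIL-ALL) peaks per Mb in 16p13.3 and 1.74 (K562) to 6.86 (DND41) peaks per Mb in the remainder, 3.82 to 8.72 times as many in the band. HPB-ALL had 3.04 against 4.98 peaks per Mb, a ratio of 0.610. Over all 7 lines the density was 18.1 ± 10.2 peaks per Mb (SD, n = 7) in 16p13.3 and 4.33 ± 1.82 (SD, n = 7) outside it, higher in the band in 6 of 7 lines (exact sign-flip permutation p = 0.03125, two-sided). Without HPB-ALL it was higher in 6 of 6 lines, and the mean difference was 16.4 peaks per Mb in place of 13.8; HPB-ALL was the 1 line with the opposite sign, so leaving it out fixes the direction. Per Mb of whole arm length, peaks were denser on 16p than on 16q in 7 of 7 lines. The values were 7.31 ± 3.19 against 5.24 ± 1.76 per Mb (SD, n = 7, exact permutation p = 0.0156, the smallest that 7 lines allow). These lengths count centromeric and unsequenced parts, which can hold no peaks and may differ in size between the arms. Density over sequenced length was not computed, so the direction is not read as a difference in binding. Of the 9 tests run on the arm these 2 density tests had the lowest p. Each rose to 0.141 after Benjamini-Hochberg adjustment of the exact permutation p-values over the 9, so neither passed it. Both used the peak counts that chose the arm, HPB-ALL included, so their p-values are given as a description.

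Bins of 1 Mb showed where along the arm the lines differed. The 5 bins with the largest shortfall of HPB-ALL were the first 5 of the arm, from 0 to 5 Mb. In the first bin HPB-ALL had 2 peaks, SUP-B15 had 0, and the other lines had 36 (JURKAT), 37 (K562), 41 (REH), 68 (DND41) and 72 (SIL-ALL). From 1 to 2 Mb HPB-ALL had 5 peaks and the others 10 (SUP-B15) to 36 (DND41). From 2 to 3 Mb it had 8 peaks and the others 15 (K562) to 70 (SIL-ALL). From 3 to 4 Mb it had 5 peaks and the others 20 (REH) to 60 (SIL-ALL), and from 4 to 5 Mb it had 4 against 18 (K562 and SUP-B15) to 33 (SIL-ALL). In each of these 5 bins except the first, where SUP-B15 had none, HPB-ALL had the lowest count and the lowest share of its list. Taking the median share of the other 6 lists as the base, 57.1 further peaks in the first bin and 22.1 to 38.5 in each of the next 4 would have put HPB-ALL level with it.

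The next 3 bins, from 5 to 8 Mb, held 1 peak in all, from JURKAT, so the inner part of 16p13.3 was empty in every other list. HPB-ALL was also the lowest just beyond the band, with 1 peak in 16p13.2 against 2 (REH) to 16 (DND41). From 16p13.13 to 16p12.1 its shares lay within the range of the other lists, except in 2 bands where it was the highest. These were 16p13.12, with 8 peaks (0.627 per 1000 peaks of the list, next 0.614 in REH), and 16p12.1, with 13 peaks (1.02 per 1000, next 0.915 in SIL-ALL). It dropped again between 29 and 30 Mb in 16p11.2, where it had 1 peak against 5 (K562) to 19 (DND41), and was high in the next bin. From 30 to 31 Mb HPB-ALL had 49 peaks, 3.84 per 1000, the highest of the 7 shares, against 1.01 (K562) to 3.55 (DND41). The most peak-rich bins over all lists began at 0 Mb (256 peaks), 2 Mb (248), 30 Mb (223), 3 Mb (198) and 4 Mb (151). No list had a peak in the centromeric band 16p11.1.

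**Figure D2:**
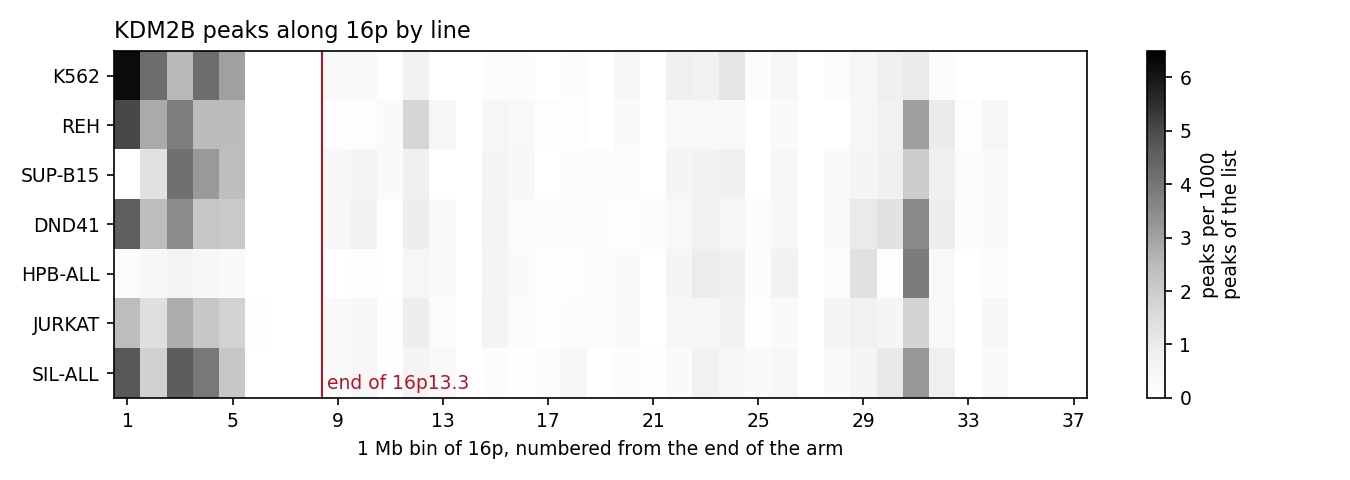
Peaks per 1000 peaks of the list (grey scale) in the 37 bins of 1 Mb of 16p (x axis, numbered from the end of the arm) for the 7 lines (rows); the red line marks the end of 16p13.3. The first 5 bins are dark in most lines and pale in HPB-ALL (0.157 to 0.627), the first is empty in SUP-B15, and bin 31 is darkest in HPB-ALL (3.84).

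Of the 24 bins of 16p with 10 or more peaks over all lists, HPB-ALL had the lowest share in 9, against 9.37% of such bins genome-wide. Of the 6 bins in which the other lists had a median of at least 1 per 1000 peaks, HPB-ALL was below 0.25 times that median in 5, against 5.8% of such bins genome-wide. These bins were chosen with the arm, so nothing is read from the counts. By the same rule SUP-B15 was low in 1 of 6 bins of the arm (3.49% genome-wide), the first. The other lines were low in 0 of 6, against 6.93% (K562), 2.64% (REH), 0.0% (DND41) and 0.439% each (JURKAT and SIL-ALL) genome-wide.

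The first SUP-B15 peak of the arm began at position 1663843, whereas those of the other lines began between 102803 (DND41) and 103922 (HPB-ALL). In the sequence before it, the alpha-globin end of the arm, K562 had 52 peaks, REH 53, JURKAT 50, DND41 and SIL-ALL 87 each, and HPB-ALL 2. That is 3.37 (JURKAT) to 8.75 (K562) per 1000 peaks in the 5 lists other than SUP-B15 and HPB-ALL. Past this point SUP-B15 had 83 peaks in 16p13.3, 11.0 per 1000, within the 7.28 (JURKAT) to 11.5 (SIL-ALL) of the other lines without HPB-ALL. HPB-ALL had 22 peaks past the same point, 1.72 per 1000, below each of the others. The limit was set by the SUP-B15 peaks themselves, after they were seen, and is a description.

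The few HPB-ALL peaks of 16p13.3 were weak and narrow within their own list. The choice of the arm used peak numbers, not scores or widths. A list keeps only peaks above its lowest score, so scores and widths cannot be taken as independent of the low number. They are given as a description. The 24 peaks had a median score percentile of 21.5, and 19 of them stood below percentile 50. The peaks of HPB-ALL in the remainder of 16p had a median percentile of 62.1, or 54.6 without the 16p11.2 stretch. The difference, band minus whole remainder, was -40.6 percentile points. In the other lines the difference was 1.33 in K562, 15.5 in REH, 12.0 in SUP-B15, 1.40 in DND41, 9.23 in JURKAT and 2.43 in SIL-ALL. HPB-ALL was the only line of the 7 with a negative difference. Over the 7 lines the mean difference was 0.192 (exact permutation p = 0.984, two-sided), and without HPB-ALL, the 1 negative line, it was 6.99.

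Peaks of HPB-ALL were also narrower in the band. Its median width was 154.5 bp in 16p13.3 and 353.0 bp outside, a difference of -198.5 bp. Without the 16p11.2 stretch its median width outside the band was 294.0 bp. The other lines differed between the 2 parts by -14.0 bp (DND41) to 59.0 bp (K562). Over the 7 lines the mean difference was -17.1 ± 83.4 bp (SD, n = 7) and did not pass the test (exact permutation p = 0.859). HPB-ALL peaks covered 5.04 kb of 16p13.3, against 30.95 kb (SUP-B15) to 71.9 kb (SIL-ALL), and 81.5 kb of the remainder, against 23.3 (REH) to 51.4 kb (DND41). Of the 81.5 kb, 43.6 kb lay in the 16p11.2 stretch. Without it HPB-ALL peaks covered 37.9 kb, less than the 41.8 kb of DND41.

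**Figure D3:**
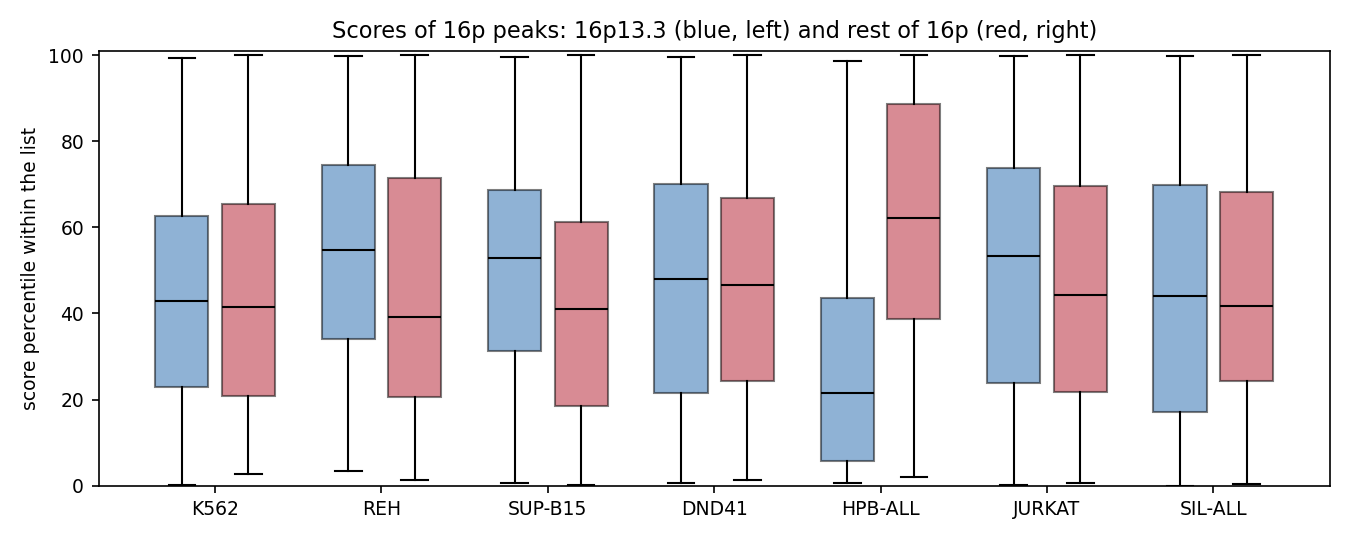
Score percentile within the list (y axis) of 16p peaks, in 16p13.3 (left box) and the remainder of 16p (right box), for each line; boxes show median and quartiles, whiskers the lowest and highest peak. The HPB-ALL boxes separate (medians 21.5 and 62.1, the latter 54.6 without the 16p11.2 stretch), whereas the medians of the other lines are at most 15.5 apart.

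Sites shared by most lines show which 16p13.3 sites HPB-ALL had. Overlapping peaks, from whichever list, were joined into 1 region, and a line had the region if any of its peaks was in it. The arm had 714 of the 29071 regions, 387 of them in 16p13.3. In 16p13.3, 56 regions had a peak of 4 or more of the 6 lines other than HPB-ALL, and HPB-ALL had a peak in 14 of them (25%; Wilson 95% interval 15.5 to 37.7%). In the whole genome it had a peak in 77.8% of such regions, in the remainder of 16p in 26 of 37, and on 16q in 53 of 94 (56.4%). The 24 HPB-ALL peaks of the band fell in 17 regions, so the low share restates the peak number that chose the arm and is a description. The 14 regions had a median HPB-ALL percentile of 24.95, whereas the mean percentile over the other lines with a peak there had a median of 73.3. In the 26 regions of the remainder of 16p the order was the reverse, with 92.9 in HPB-ALL and 63.1 in the others. Genome-wide HPB-ALL was also the higher in such regions, with 82.3 against 69.4. Without the 16p11.2 stretch, the 19 such regions of the remainder had 84.2 in HPB-ALL and 68.6 in the others. Neither order was particular to HPB-ALL. In their own such regions K562 (56.6 against 73.6) and SUP-B15 (59.4 against 72.2) were also the lower in the band, and REH, DND41, JURKAT and SIL-ALL the higher. In the remainder REH (70.3 against 68.5), DND41 (77.5 against 67.1), JURKAT (71.0 against 62.8) and SIL-ALL (78.8 against 62.7) were the higher, and K562 and SUP-B15 the lower. The 42 regions of 16p13.3 that HPB-ALL missed had a median of 61.4 in the other lines, lower than the 73.3 of the 14 where it had one. Under other settings, chosen after seeing the data, the share in 16p13.3 ranged from 11.8% (the 5942 strongest peaks of each list, 71.4% genome-wide) to 37.04% (a common score floor, 82.0% genome-wide).

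The other lines are given beside their own genome-wide share, and the differences were not tested. K562 had a peak in 34 of 46 such regions of the band (73.9%, interval 59.7 to 84.4%) and in 20 of 56 of the remainder of the arm (35.7%, 24.5 to 48.8%), around its genome-wide 46.4%. SIL-ALL had 34 of 36 in the band, against 81.8% genome-wide. DND41 had 29 of 37 (85.6% genome-wide) and JURKAT 31 of 38 (82.9%). REH had 24 of 46 (46.4%). SUP-B15 had 25 of 48 (55.6%), and 1 of the 14 such regions with their midpoint before the start of its first peak. The regions differ between lines, since each line is set against the other 6.

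**Figure D4:**
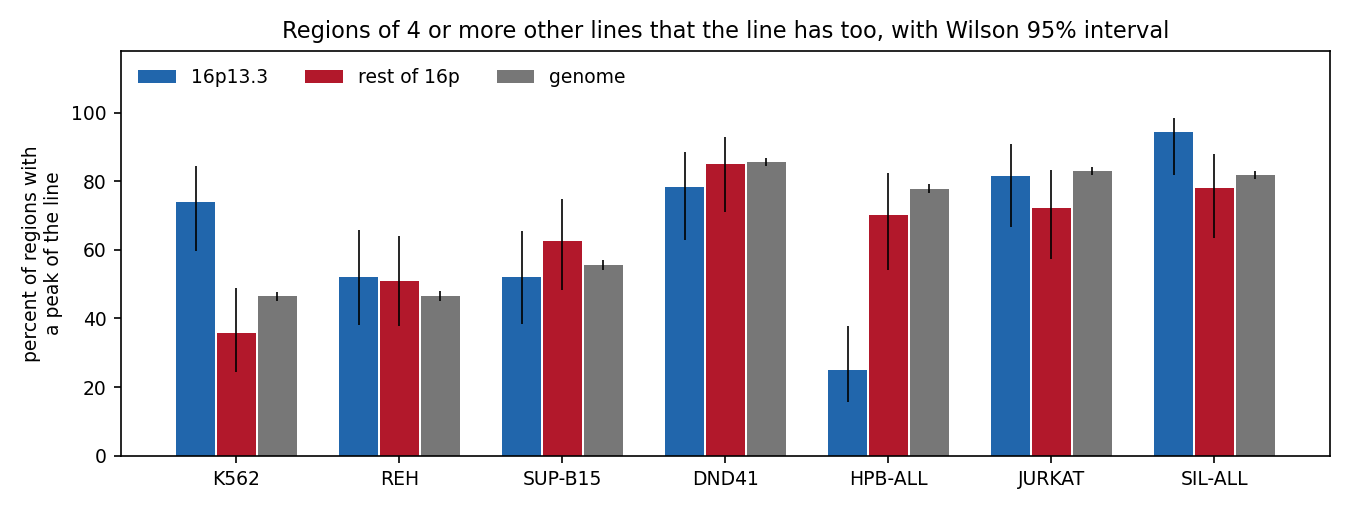
Percent (y axis) of the regions with a peak of 4 or more other lines in which the named line has a peak too, in 16p13.3, the remainder of 16p and the whole genome, with Wilson 95% intervals. HPB-ALL reaches 25% in 16p13.3 and 77.8% genome-wide, and K562 is the line with the highest band value relative to the remainder of the arm (73.9 against 35.7%).

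All 7 lines had a peak in 15 regions of the arm, 5 in 16p13.3 and 10 outside it, 2.10% of its regions against 2.44% genome-wide. The number depends on how regions are made, and was 6 with equal lists and 1 when peaks had to overlap by 50% of each. The strongest was in 16p11.2 at positions 30668770 to 30672892, and it held the top-scored peak of the arm in every line. That peak ranked between 1 (SUP-B15, JURKAT and SIL-ALL, in the last 2 tied with other peaks of the list) and 5 (K562) of the whole list. It was 4123 bp wide in HPB-ALL and 1956 (K562) to 2521 bp (SUP-B15) in the other lines. The second, in 16p13.3 at 3199300 to 3201165, was the 1 strong HPB-ALL peak of that band: it scored 1089.68 (percentile 98.7), and the next HPB-ALL peak of the band scored 177.07 (percentile 65.0). The third was in 16p12.2 at 21610477 to 21612054, with percentiles of 60.4 (SUP-B15) to 99.4 (HPB-ALL). The fourth, in 16p13.13 at 11348373 to 11350732, stood at 99.3 in DND41 and 48.4 in HPB-ALL, its lowest. The fifth, in 16p12.2 at 21312070 to 21313416, ranged from 52.9 (K562) to 96.6 (HPB-ALL).

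A further 7 regions of the arm had a peak in all 6 lines other than HPB-ALL and none in HPB-ALL. They were 0.980% of the arm's regions, against 0.368% genome-wide and a higher 1.35% on 16q. This class was used with the choice of the arm, and the 7 are given as a description. Of these, 6 lay in 16p13.3. The strongest was at 3070112 to 3071597, from percentile 49.6 in K562 to 95.8 in SUP-B15. It was followed by 2582272 to 2583046 (65.7 in K562 to 89.4 in SUP-B15), 1662207 to 1665015 (49.3 in SUP-B15 to 95.4 in DND41) and 1755691 to 1757110 (61.2 in K562 to 96.1 in DND41). The region at 1662207 to 1665015 carries the first SUP-B15 peak of the chromosome, and with a score of 75.15 that peak was near the middle of that list. The fifth lay in 16p11.2 at 29817969 to 29819701, between the last HPB-ALL peak before 29 Mb and the dense stretch described next, and ranged from 19.3 (K562) to 94.5 (DND41).

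In 16p11.2 HPB-ALL had a stretch of dense and strong peaks with sparse flanks. It ran for 581 kb from 30388619 to 30969547, 1.59% of the arm, and held 48 HPB-ALL peaks, 28.7% of those on the arm. The other lists had 3 (K562), 10 (SUP-B15), 17 (REH), 20 (JURKAT), 34 (DND41) and 37 (SIL-ALL) peaks in it. Per 1000 peaks this was 3.76 in HPB-ALL (interval 2.84 to 4.98) against 0.505 (K562) to 2.42 (SIL-ALL). The last HPB-ALL peak before the stretch ended 313 kb upstream and the next after it began 114 kb downstream. In the 1 Mb before the stretch HPB-ALL had 2 peaks and the others 8 (K562) to 38 (DND41). In the 1 Mb after it HPB-ALL had 4 and the others 1 (K562) to 13 (DND41 and SIL-ALL). Its limits were drawn from the HPB-ALL peaks after they were seen, so its density is a description. The same holds for the scores, widths, coverage and regions of the stretch, given next.

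The stretch held 16 of the 23 HPB-ALL peaks of 16p that stood in the top 5% of the list, whereas each other line had 1 or, in SIL-ALL, 2 such peaks in it. Among the top 1%, HPB-ALL had 7 peaks on 16p, 6 of them in the stretch and none in 16p13.3. The other lines had 2 or 3 on the arm, from lists of different length. As a share of the line's top 1%, 16p held 5.47% in HPB-ALL (interval 2.67 to 10.9%). In the others it held 1.34% (JURKAT, 0.369 to 4.76%) to 3.66% (REH, 1.25 to 10.2%). The HPB-ALL interval overlapped that of each other line. The median percentile in the stretch was 84.3 in HPB-ALL and 15.4 (K562) to 41.5 (SIL-ALL) in the others. The median width was 667.0 bp in HPB-ALL against 180.5 (DND41) to 411.0 bp (K562), and HPB-ALL peaks covered 7.50% of the stretch against 0.475 to 1.81%. HPB-ALL had a peak in 48 of the 52 merged regions of the stretch, a number favoured by limits set on HPB-ALL peaks. Of the 7 regions there with a peak of 4 or more other lines HPB-ALL had 7, against 77.8% of such regions genome-wide. Of the 17 regions it shared there with 3 or more other lines, HPB-ALL had the highest percentile in 15, the exceptions being the strongest region of the arm and 30885845 to 30887082. The 95 HPB-ALL peaks of 16p outside the stretch and 16p13.3 had a median percentile of 54.6, against 41.1 to 50.6 in the other lines.

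**Figure D5:**
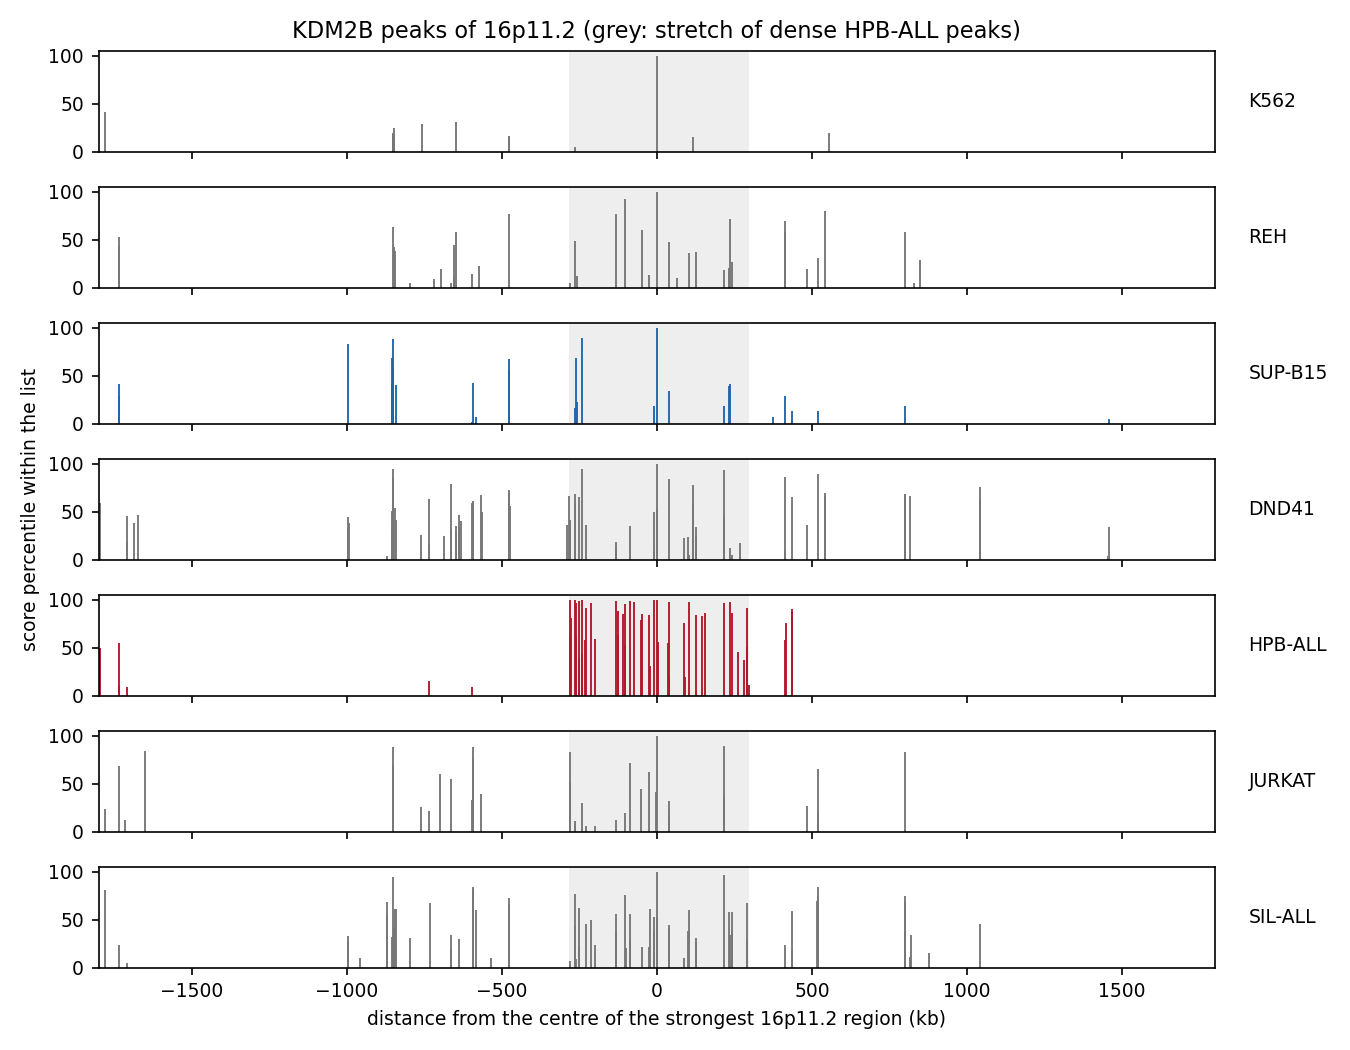
KDM2B peaks as vertical lines whose height is the score percentile within the list (y axis), by distance in kb from the centre of the strongest 16p11.2 region (x axis), 1 panel per line; the stretch of 581 kb is shaded. HPB-ALL has 48 lines in the shaded part, 16 of them above percentile 95, and 2 in the 1 Mb before it.

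Regions with a peak of all 4 T-ALL lines and of no other line numbered 6 on the arm, 0.840% of its regions against 2.25% genome-wide, and 1 of the 6 was in 16p13.3. The strongest, at 2014587 to 2015201 in 16p13.3, stood at percentile 54.6 in HPB-ALL and 72.4 (JURKAT) to 85.7 (DND41) in the other T-ALL lines. The second, at 22308511 to 22309980 in 16p12.2, was strongest in HPB-ALL (96.9 against 47.2 to 75.8). The next pair lay in the 16p11.2 stretch. At 30582248 to 30583957 HPB-ALL stood at 98.5 and the other T-ALL lines at 35.6 to 71.5, and at 30388619 to 30390972 HPB-ALL stood at 99.9 with a score of 2885.53, while SIL-ALL was at 7.36 and JURKAT at 83.1. The fifth, at 14379186 to 14379745 in 16p13.12, ranged from 25.8 (SIL-ALL) to 79.97 (JURKAT). With HPB-ALL set aside, 26 regions of the arm had a peak of the remaining 3 T-ALL lines and of none of K562, REH and SUP-B15, 3.64% of its regions and near the 3.31% genome-wide.

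HPB-ALL alone had a peak in 36 regions of the arm, 5.04% of its regions against 7.99% genome-wide, and 21 of the 36 lay in the 16p11.2 stretch. None lay in 16p13.3, where each of its 24 peaks fell in a region of at least 1 other line. The strongest regions of HPB-ALL alone were all in the stretch, at 30596444 to 30597743 (percentile 97.6), 30545974 to 30546634 (88.1) and 30825516 to 30826188 (86.1). The first ranked 2 among the 2322 regions that HPB-ALL alone had in the genome.

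No test of T-ALL lines against K562, REH and SUP-B15 on this arm passed. Without HPB-ALL, whose value chose the arm, 16p held 2.54 ± 0.448% of the list in T-ALL lines (SD, n = 3) and 2.60 ± 0.390% in the others (SD, n = 3), and the exact permutation test, two-sided, gave p = 0.6, where the smallest possible is 0.1. The 16p13.3 share of 16p peaks was 45.2 ± 20.9% in the 4 T-ALL lines and 60.4 ± 9.71% in the 3 others (exact permutation p = 0.457). That difference of -15.2 percentage points includes HPB-ALL, whose peak counts chose the arm, so it is a description. Without HPB-ALL the difference was -4.94 (exact permutation p = 0.7). Median peak width on 16p was 236 ± 49.4 bp and 319 ± 130.0 bp (exact permutation p = 0.343). K562 had the widest peaks of the arm (median 460.5 bp), as over its whole list (552.0 bp). On 16p the median percentile was 47.4 ± 4.42 and on 16q 50.2 ± 2.64 (SD, n = 7), lower on 16p in 5 of 7 lines (exact permutation p = 0.203), and widths on the arms differed by -22.6 ± 51.8 bp (exact permutation p = 0.281).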

How the data were processed

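The series has 7 KDM2B ChIP-seq libraries, 1 per cell line, and 5 input libraries, whose signal was not used here. FastQC 0.10.1, Bowtie 1.1.1 (an aligner) and build hg19 are named in the submitters' processing notes. Peak names in the deposited files point to MACS. For its version, threshold and control, the sources used here give nothing. The score of each peak is the authors' own value, as deposited, with no unit stated; in DND41, HPB-ALL, JURKAT and SIL-ALL several peaks tie at a high score. Depth is unknown, so no interval could be given for the presence of a peak.

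A peak belonged to the band or bin of its midpoint, with bands from the hg19 table of circlize 0.4.16. Positions count from 1. Bins of 1 Mb count from the end of the arm. Regions join peaks of any list that share 1 bp or more. Lines were the units of the exact permutation tests, 3 between T-ALL and other lines and 6 within lines (sign flips), with Benjamini-Hochberg adjustment over the 9. With 1 library per line each p-value reflects differences among lines and among libraries, which may be technical. Region counting was tested on simulated data. The members, sections and comparisons were chosen with earlier results of these data known. Regions were ranked by the mean percentile of each line's best peak. Those named are the 5 highest with all lines, with every line but HPB-ALL and with T-ALL lines only, the 3 highest of HPB-ALL alone, and the top peak of each line; named bins are the 5 richest and the 5 with the largest HPB-ALL shortfall. Other regions and the 2 sections bounded by SUP-B15 and HPB-ALL peaks were picked after their values were seen. Alternatives were equal lists, higher score thresholds, other merging and bin sizes, other denominators, and each line left out. Python 3.11.15 ran scipy 1.17.1, pandas 2.3.3 and numpy 2.4.6. Plots are from matplotlib 3.10.9.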

Additional observations from a re-analysis of the deposited data

Results flagged for a closer look

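In 14 quantities per line, 7 values stood far from those of the other lines. Chance alone marks about 0.7 of 14, but the quantities overlap and were picked with the arm's pattern known, so the number is not read against it. HPB-ALL had 14.4% of its 16p peaks in 16p13.3, with SUP-B15 next at 51.2%; this share is built from the peak counts that chose the arm and is a description. Its median score percentile was 21.5 in 16p13.3 (next 42.9 in K562) and 62.1 in the remainder of the arm (next 46.7 in DND41), and the difference between them was -40.6 (next 1.33). The difference in median width, band minus remainder, was -198.5 bp (next -14.0 in DND41). Without the 16p11.2 stretch the HPB-ALL remainder had a median percentile of 54.6 and a median width of 294.0 bp. K562 had a median peak width of 460.5 bp on 16p (next 308.0 in HPB-ALL) and of 492.5 bp in 16p13.3 (next 297.0 in SUP-B15). Copy number and input signal were not used here, and their part in these values was not tested.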

How the results depend on the processing

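Of 209 alternative values, 147 kept their direction and their side of the threshold, moved by less than counting error or, for region counts, stayed within a fixed ratio of the main count. By that ratio the 21 regions of all lines found without HPB-ALL counted as unchanged from 15. Lists cut to their 5942 strongest peaks gave a 16p share of 2.47% in DND41 and 2.46% in SIL-ALL. Peaks at or above the list's median score gave 2.22% in K562 and 2.54% in SIL-ALL, a common score floor of 80.03 gave 2.32% in K562, and peaks within 500 bp counted as 1 gave 1.55% in HPB-ALL. As a share of chromosome 16 peaks, 16p held 41.4% in SUP-B15, 43.7% in HPB-ALL, 47.3% in JURKAT, 48.2% in REH, 51.4% in SIL-ALL, 51.8% in DND41 and 52.3% in K562.

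The T-ALL difference in 16p share, without HPB-ALL, reversed to 0.103 percentage points at the median score and 0.162 at the common floor. The T-ALL difference in width reversed to 75.4 bp with equal lists and 11.6 bp with close peaks joined, which also reversed the width differences of 16p13.3 against the remainder (27.1 bp) and of 16p against 16q (37.5 bp). The percentile difference of 16p13.3 reversed to -6.40 with equal lists, -9.83 at the median score and -6.79 at the common floor. That of 16p against 16q passed the unadjusted exact permutation test with equal lists (-5.92, p = 0.03125) and at the median score (-6.34, p = 0.046875). None of these reversals had passed a test, and the cause was not tested.

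Regions of all lines numbered 6 with equal lists, 5 at the median score, 7 at the common floor and 1 with 50% reciprocal overlap. Regions of all lines but HPB-ALL numbered 4 at the median score, 2 at the common floor and 0 with reciprocal overlap. T-ALL regions numbered 2 with equal lists, 2 at the median score and 0 with reciprocal overlap. Regions of HPB-ALL alone numbered 59 at the common floor and 23 with peaks within 500 bp merged. Widely shared 16p13.3 regions with a HPB-ALL peak were 11.8% with equal lists, 13.33% at the median score, 15.3% with 3 or more other lines, 33.3% with 5 or more and 37.04% at the common floor, settings chosen after seeing the data; the genome-wide shares were 71.4, 73.3, 69.1, 83.8 and 82.0%.

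With each line left out in turn, the density difference of 16p13.3 ranged from 11.5 to 16.4 peaks per Mb, and without K562, REH, SUP-B15, DND41, JURKAT or SIL-ALL its exact permutation p was 0.0625. The density difference of 16p against 16q, over whole arm lengths, ranged from 1.72 to 2.39. The percentile difference of 16p13.3 ranged from -2.37 (without REH) to 6.99 (without HPB-ALL), and that of 16p against 16q from -3.98 to -1.45. Width differences ranged from -29.75 to 13.2 bp (16p13.3), -34.3 to -7.58 bp (16p against 16q) and -139.6 to -11.9 bp (T-ALL). The T-ALL difference ranged from -0.285 to 0.197 in 16p share and from -20.5 to -4.94 in the 16p13.3 share. Regions numbered 14 to 21 (all lines), 7 to 13 (all but HPB-ALL), 9 to 26 (T-ALL) and 39 to 47 (HPB-ALL alone).

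Samples could not be paired across lines, because there was 1 peak list per line and no replicate number to pair them by. The 6 tests within lines were paired, setting parts of the same list against each other. Read depth is unknown, and the lists had different lowest scores, so a site without a peak is not shown to lack binding.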
